A study of Mus musculus with 18 samples.

Results

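The messenger RNAs of 10 iron handling and metal binding genes were followed in the livers of 5 control and 5 hypothyroid mouse pups, each measured on 1 two-colour array as the log2 ratio of liver to a common reference RNA. The genes were chosen by name: Hamp, Hfe, Trf, Tfrc, Slc40a1, Cp, Fth1, Ftl1, Mt1 and Mt2. Each was matched by accession to 1 probe on the array, and the 10 are part of 16535 genes named on it in this way. Probes whose accession had no match were not searched for these genes. All 10 passed the filter on dim probes, as did 14623 genes in all. No gene of the set had an adjusted p below 0.05 between the groups. The means of 7 were higher and of 3 lower in hypothyroid liver, with the transferrin, transferrin receptor, Hfe and ceruloplasmin means higher by 0.33 to 0.93 on the log2 scale. One control array, control 616, was the lowest control for 6 of the 10 genes, so the difference of each without it is also given.

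All pups were C57BL/6 males killed at PND 15, 1 from each litter. Dams of the hypothyroid group drank sugar water with 0.05% methimazole (MMI) and 1% perchlorate from PND 12, which block the making of thyroid hormone, and dams of the control group drank sugar water alone. Pups of both groups had been given PBS by injection some hours before. Exposure to MMI and perchlorate thus lasted a few days only. The paper describes it for dams and their litters, and how far pups drank the water themselves is not stated. Animals are named by the numbers in the labels, such as control 881.

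Iron in plasma is carried by transferrin and enters cells through the transferrin receptor. It is stored in ferritin and leaves cells through ferroportin, the product of Slc40a1. The liver senses iron and makes hepcidin, the peptide encoded by Hamp, which makes ferroportin be degraded and so lowers iron in plasma. Hepcidin is itself raised by bone morphogenetic proteins acting through hemojuvelin, Hfe and transferrin receptor 2, and by the inflammatory cytokine interleukin 6. Metallothioneins are small cysteine-rich proteins that bind zinc and copper. Their genes are induced by zinc through the factor Mtf1, and by glucocorticoids and inflammation.

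Arrays were alike in depth, with 76.6 to 82.5% of probes above the background limit in control arrays and 75.9 to 85.4% in hypothyroid arrays. The ratios of 9 arrays correlated with the mean of arrays on other slides at r = 0.974 to 0.988 over probes, and those of control 616 at 0.882. On control 832 and hypothyroid 576, which shared a slide, the ratios with the dyes as labelled ran opposite to all other arrays (r = -0.974 and -0.978). The study's methods give Cy5 for every liver sample, and no label states a dye swap. Liver was taken to be in the Cy3 channel on these 2 arrays from this correlation alone, and in Cy5 elsewhere, which gives each group 1 array of the other dye. Of the genes known to need thyroid hormone in liver, the deiodinase gene Dio1, the lipogenic gene Thrsp and the malic enzyme gene Me1 were lower in hypothyroid liver by 0.94, 1.16 and 0.48 on the log2 scale, with limma adjusted p = 0.604, 0.346 and 0.274. All 5 hypothyroid arrays were below every control for Me1, 3 for Thrsp and 1 for Dio1. The paper, with its own test, lists Dio1 and Thrsp among its significantly altered genes, and gives malic enzyme as lower by an unadjusted p. The fit used here called 2 of 31987 probes. Hepatocyte markers were present on all arrays. The 6 measured of 8 listed had mean ratios of 2.57 to 4.64 in controls, the lowest in control 616, and of 4.05 to 4.70 in hypothyroid liver. In whole liver, fewer cells of a type and less RNA per cell cannot be told apart.

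The start regions of the metallothionein and hepcidin genes are shown because the genes of each pair shared extreme arrays, as given further on. Mt1 and Mt2 were highest on the same array and lowest on the same array. Hamp and Hamp2 had the same lowest array in each group, but differed in the lowest and highest over all arrays. The sequences are RefSeq windows of GRCm38.p6, from 250 bases before to 50 bases after the annotated start, printed along the strand of the gene. Mt2 and Mt1 lie next to each other on chromosome 8 with 0 annotated genes between them. Capitals mark the core of the metal response element, to which Mtf1 is known to bind, searched as TGCACNC or TGCGCNC on both strands (Mt2 at chr8:94172368-94172667 and Mt1 at chr8:94178839-94179138, both on the plus strand):
Mt1: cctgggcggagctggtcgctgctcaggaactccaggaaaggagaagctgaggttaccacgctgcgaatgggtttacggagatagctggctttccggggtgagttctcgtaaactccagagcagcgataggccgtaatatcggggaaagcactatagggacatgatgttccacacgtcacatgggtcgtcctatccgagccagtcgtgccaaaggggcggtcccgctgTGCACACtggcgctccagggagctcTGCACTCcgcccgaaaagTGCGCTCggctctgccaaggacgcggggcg
Mt2: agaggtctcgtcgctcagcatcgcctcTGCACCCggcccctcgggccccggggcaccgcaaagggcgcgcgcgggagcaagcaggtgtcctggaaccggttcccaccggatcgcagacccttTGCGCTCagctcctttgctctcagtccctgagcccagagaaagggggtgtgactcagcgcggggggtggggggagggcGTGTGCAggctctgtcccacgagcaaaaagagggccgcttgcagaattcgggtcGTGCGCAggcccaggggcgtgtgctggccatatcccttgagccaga
The Mt1 window held 3 matches and the Mt2 window 4. At least 1 match was in 25.7% of all 32851 windows of this length and 3 or more were in 1.97%. When aligned, the windows of Mt1 and Mt2 were identical in 177 of 358 columns (49.4%).

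Hamp and Hamp2, the second hepcidin gene of the mouse, lie on chromosome 7 with 1 annotated pseudogene, Usf2-ps1, between them. Capitals mark GGCGCC, the core of the BMP response element, and TTCNNNGAA, the letters of a STAT site through which interleukin 6 is known to act on hepcidin, both searched on both strands (Hamp at chr7:30943980-30944279 and Hamp2 at chr7:30924132-30924431, both on the minus strand):
Hamp: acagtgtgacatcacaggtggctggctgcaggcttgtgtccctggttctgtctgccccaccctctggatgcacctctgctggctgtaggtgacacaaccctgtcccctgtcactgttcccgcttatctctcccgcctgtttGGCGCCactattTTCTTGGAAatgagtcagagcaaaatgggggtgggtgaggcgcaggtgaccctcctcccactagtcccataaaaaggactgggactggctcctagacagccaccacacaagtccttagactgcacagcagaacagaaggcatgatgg
Hamp2: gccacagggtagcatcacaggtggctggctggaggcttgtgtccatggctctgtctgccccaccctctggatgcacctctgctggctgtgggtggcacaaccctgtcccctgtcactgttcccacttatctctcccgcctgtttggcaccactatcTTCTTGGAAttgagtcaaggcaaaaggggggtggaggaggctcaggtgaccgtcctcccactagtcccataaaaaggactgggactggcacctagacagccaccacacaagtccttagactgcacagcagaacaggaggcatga
The Hamp window held 1 match to GGCGCC and 1 to TTCNNNGAA. The Hamp2 window held the STAT letters 1 time and GGCGCC 0 times. Of all windows, 11.9% held GGCGCC and 8.3% held TTCNNNGAA. The windows of Hamp and Hamp2 were identical in 276 of 303 aligned columns (91.1%). AGGTCA, the core letters bound by thyroid hormone receptors, was in 16.3% of all windows and was found 0 times in the windows of the members in the table, which held none for Trf and Slc40a1. These matches are descriptions of letters and were not tested for use.

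**Figure D1:**
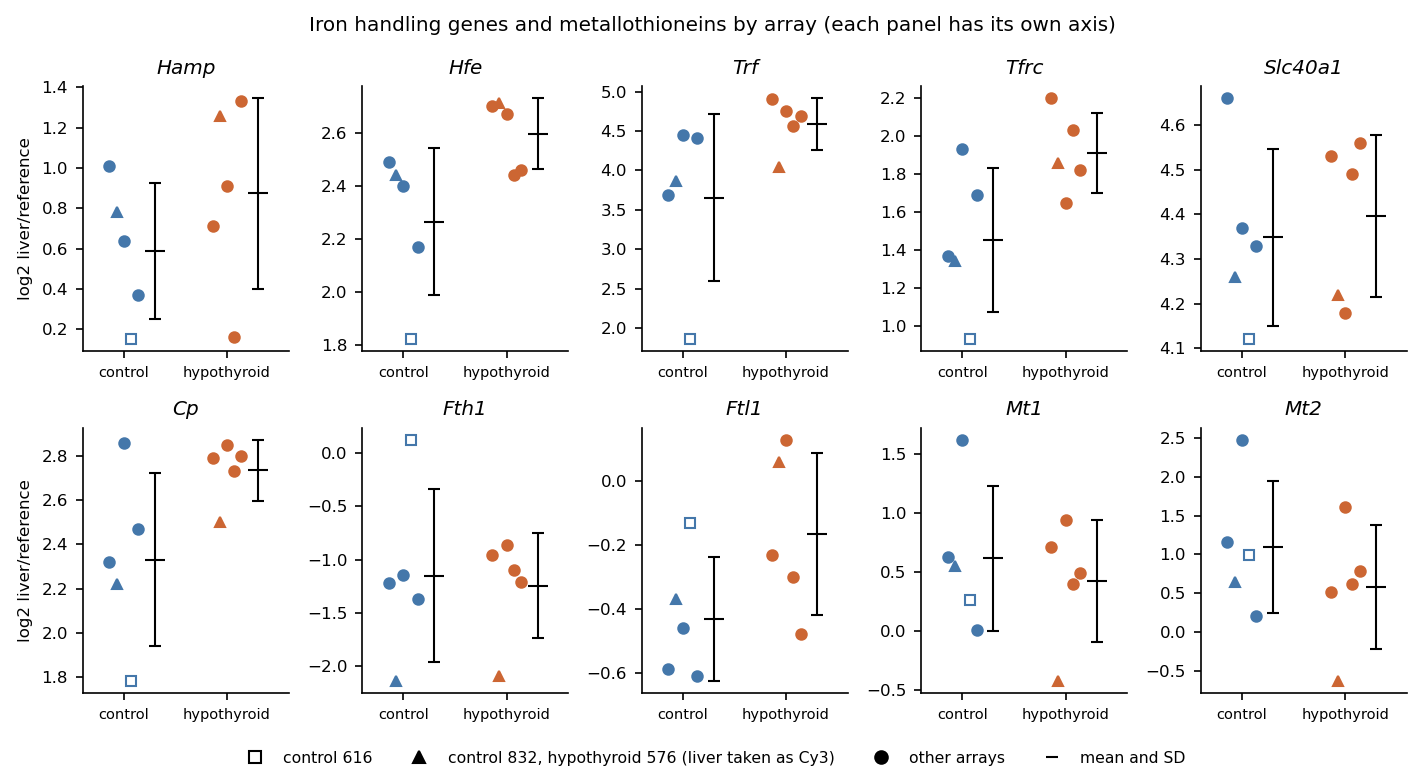
Log2 ratio of liver to reference for each gene (y axis, own scale per panel) on the 5 control and 5 hypothyroid arrays, with the mean and SD. Control 616 (open square) was the lowest control for 6 genes and the highest for Fth1 and Ftl1, and the 2 arrays on which liver was taken to be in Cy3 (triangles) were the lowest of all for Fth1.

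Hepcidin was first compared, as the hormone that sets the output of the system. The log2 ratio of Hamp was 1.01, 0.78, 0.64, 0.15 and 0.37 in controls 881, 832, 522, 616 and 391. It was 0.71, 1.26, 0.91, 0.16 and 1.33 in hypothyroid 891, 576, 311, 723 and 626. The groups overlapped over most of their range, and the lowest array of each group was nearly the same. The mean was 0.59 ± 0.34 (SD, n = 5) in controls and 0.87 ± 0.47 (SD, n = 5) in hypothyroid liver, a difference of 0.29 (SE 0.23, 95% confidence interval -0.22 to 0.79, limma adjusted p = 0.772). Fold changes of hepcidin between 0.861 and 1.73 are thus within the interval. Single arrays moved the difference by over 1.5 times, to 0.18 without control 616, 0.19 without hypothyroid 576, 0.17 without hypothyroid 626 and 0.47 without hypothyroid 723. The Hamp spot was well above background on 5 control and 4 hypothyroid arrays.

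Hamp2 had ratios of 2.91, 2.84, 2.46, 1.85 and 2.31 in controls and of 2.72, 2.68, 2.88, 1.03 and 2.80 in hypothyroid liver, in the same order of animals. Its mean was lower by 0.06 (SE 0.34, limma adjusted p = 0.978). Both hepcidin genes had their lowest control in 616 and their lowest hypothyroid array in 723. The 2 transcripts are closely alike, and how far each probe reads the other transcript was not tested.

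Hfe, the membrane protein that is lost in hereditary hemochromatosis and without which hepcidin is too low, was above the control median on all 5 hypothyroid arrays. Its ratio was 2.49, 2.44, 2.40, 1.82 and 2.17 in controls and 2.70, 2.71, 2.67, 2.44 and 2.46 in hypothyroid liver. Of the hypothyroid arrays 3 were above every control, and the other 2 lay among the 3 highest controls. The difference was 0.33 (SE 0.13, 95% confidence interval 0.05 to 0.61), a fold change of 1.26, with an exact two-sided permutation p = 0.0317 and a limma adjusted p = 0.622. The difference was 0.21, 0.27, 0.27 and 0.64 on the 4 slides that held both groups, and 0.22 without control 616.

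Transferrin had the largest mean difference of the 10 genes. The ratio of Trf, which hepatocytes secrete, was 3.69, 3.87, 4.45, 1.86 and 4.41 in controls and 4.90, 4.04, 4.75, 4.56 and 4.69 in hypothyroid liver. All hypothyroid arrays but 576 were above every control, and control 616 was far below all other arrays. The mean was 3.66 ± 1.06 (SD, n = 5) against 4.59 ± 0.33 (SD, n = 5), a difference of 0.93 (SE 0.43, 95% confidence interval 0.00 to 1.87, limma adjusted p = 0.67), or a fold change of 1.91. The exact permutation p was 0.0476. Without control 616 the control mean was 4.10 ± 0.38 and the difference 0.49 (limma adjusted p = 0.592).

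The hepatocyte marker mean was lowest in the same array of each group as Trf. It was 2.57 in control 616, 3.93 to 4.64 in the other controls, 4.05 in hypothyroid 576 and 4.54 to 4.70 in the other hypothyroid arrays. All 6 hepatocyte markers measured were higher in hypothyroid liver, with a median difference of 0.59, and 1 of them, the albumin gene Alb, had an unadjusted p below 0.05 (difference 0.66, SE 0.29, limma adjusted p = 0.661). Its part in the differences of Trf, Cp and Hfe was not tested.

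Tfrc, the receptor that takes up transferrin and whose messenger is made stable when iron in the cell is low, was measured by 10 spots on each array, with an SD between spots of 0.03 to 0.07. Its ratio was 1.37, 1.34, 1.93, 0.93 and 1.69 in controls and 2.20, 1.86, 1.65, 2.03 and 1.82 in hypothyroid liver. All hypothyroid arrays were above the control median, and 2 were above every control. The difference was 0.46 (SE 0.17, 95% confidence interval 0.08 to 0.84), a fold change of 1.38, with an exact permutation p = 0.0556 and a limma adjusted p = 0.611. It was positive on 3 of 4 slides (0.83, 0.52 and 0.90) and negative on the slide of control 522 and hypothyroid 311 (-0.28). Without control 616 it was 0.33.

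Erythroid and dividing cells also use much transferrin receptor. The 9 erythroid markers tested had a median difference of -0.07, 4 higher and 5 lower, with a mean ratio of 0.75 to 1.24 in controls and 0.92 to 1.26 in hypothyroid liver. Among them the erythroid factor Klf1 was higher by 0.48 (SE 0.13, limma adjusted p = 0.379), and Epb42 was not well above background on any array. Of 7 markers of dividing cells 6 were lower, with a median of -0.21, and a mean ratio of -1.72 to -0.82 in controls and -1.77 to -1.37 in hypothyroid liver. Their part in the Tfrc value was not tested.

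Slc40a1, the iron exporter of Kupffer cells and hepatocytes, had the narrowest interval of the 10 genes. Its ratio was 4.66, 4.26, 4.37, 4.12 and 4.33 in controls and 4.53, 4.22, 4.18, 4.49 and 4.56 in hypothyroid liver, with groups that overlapped throughout. The difference was 0.05 (SE 0.11, 95% confidence interval -0.20 to 0.30, limma adjusted p = 0.928), which leaves fold changes of 0.87 to 1.23 within the interval. It turned to -0.01 without control 616. The 11 Kupffer cell markers had a mean ratio of 2.53 to 3.38 in controls and 3.09 to 3.22 in hypothyroid liver, and 8 of the 11 were higher. Cd163, the macrophage receptor for hemoglobin bound to haptoglobin, was lower by 0.56 (SE 0.18, limma adjusted p = 0.523).

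Cp encodes ceruloplasmin, the plasma ferroxidase that carries copper and lets iron be loaded on transferrin. Its ratio was 2.32, 2.22, 2.86, 1.78 and 2.47 in controls and 2.79, 2.50, 2.85, 2.73 and 2.80 in hypothyroid liver. All hypothyroid arrays were above the control median, but control 522 was above them all. The difference was 0.40 (SE 0.17, 95% confidence interval 0.04 to 0.77), a fold change of 1.32, with an exact permutation p = 0.0714 and a limma adjusted p = 0.65. Without control 616 it was 0.27 (limma adjusted p = 0.687).

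**Figure D2:**
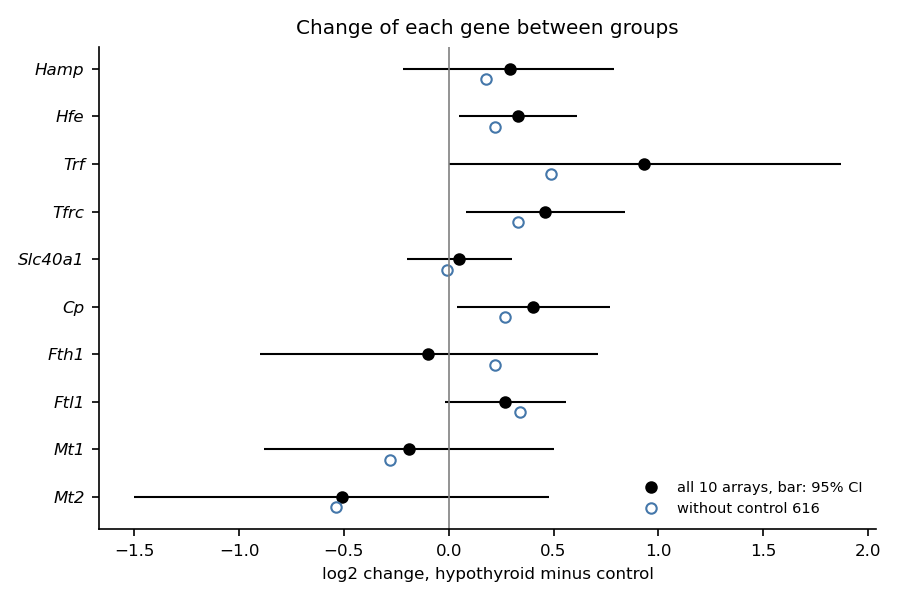
Log2 change of each gene, hypothyroid minus control, with its 95% confidence interval from limma over all 10 arrays (filled) and the change without control 616 (open). The intervals of Hfe, Tfrc and Cp lie above 0, and that of Trf starts at 0.00. Fth1 and, by a small step from 0.05 to -0.01, Slc40a1 change side when control 616 is left out.

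The ferritin subunits, which form the shell that stores iron, were lower in liver than in the reference on most arrays. Fth1, the heavy chain with ferroxidase activity, had ratios of -1.22, -2.14, -1.14, 0.12 and -1.37 in controls and -0.96, -2.09, -0.86, -1.10 and -1.21 in hypothyroid liver. Control 616 was the only array above 0, and the 2 arrays with liver taken to be in Cy3 were the lowest of each group. The difference was -0.10 (SE 0.37, limma adjusted p = 0.96) with all arrays and 0.22 without control 616. These 2 arrays lay at -2.14 to -2.09 and the others at -1.37 to 0.12, a gap that no other gene of the set showed. The part of the dye in it was not tested.

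Ftl1, the light chain, had ratios of -0.59, -0.37, -0.46, -0.13 and -0.61 in controls and -0.23, 0.06, 0.13, -0.30 and -0.48 in hypothyroid liver. Apart from control 616 the controls lay from -0.61 to -0.37, within the lower part of the hypothyroid range or below it. The difference was 0.27 (SE 0.13, 95% confidence interval -0.02 to 0.56, limma adjusted p = 0.695), with an exact permutation p = 0.111. Without control 616 it was 0.34 (limma adjusted p = 0.492), and 4 of 5 hypothyroid arrays were above the 4 controls left. It was positive on 3 slides (0.36, 0.42 and 0.59) and negative on the slide of control 616 (-0.35).

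Over the 10 genes, 0 had an adjusted p below 0.05, where 0.00625% of all 31987 probes tested did. Before adjustment 3 genes, Tfrc, Hfe and Cp, had a limma p below 0.05 with a higher mean in hypothyroid liver (0.0216, 0.0239 and 0.0333), against 3.34% of all probes in that direction. None was lower at that level, against 4.08% of all probes. These counts take no account of the slides that groups shared. With slide as a fixed block Hfe and Cp were higher and Mt2 was lower at an unadjusted limma p below 0.05 (0.0139, 0.0464 and 0.00697), and Tfrc was not past it (0.0595). With the block and control 616 left out, Trf, Ftl1 and Hfe were higher and Mt1 and Mt2 lower at that level, and 0 of the 10 genes had an adjusted p below 0.05 in either fit. Without control 616 only the slides of controls 881, 832 and 522 held both groups, so these pairs alone carry the difference. The share of all probes at that unadjusted level is not given for either block fit. The groups did not overlap for 0 of the genes, where this held for 1.07% of all probes in the higher and 1.01% in the lower direction. The median difference of the 10 genes was 0.28 and that of all probes -0.01.

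**Figure D3:**
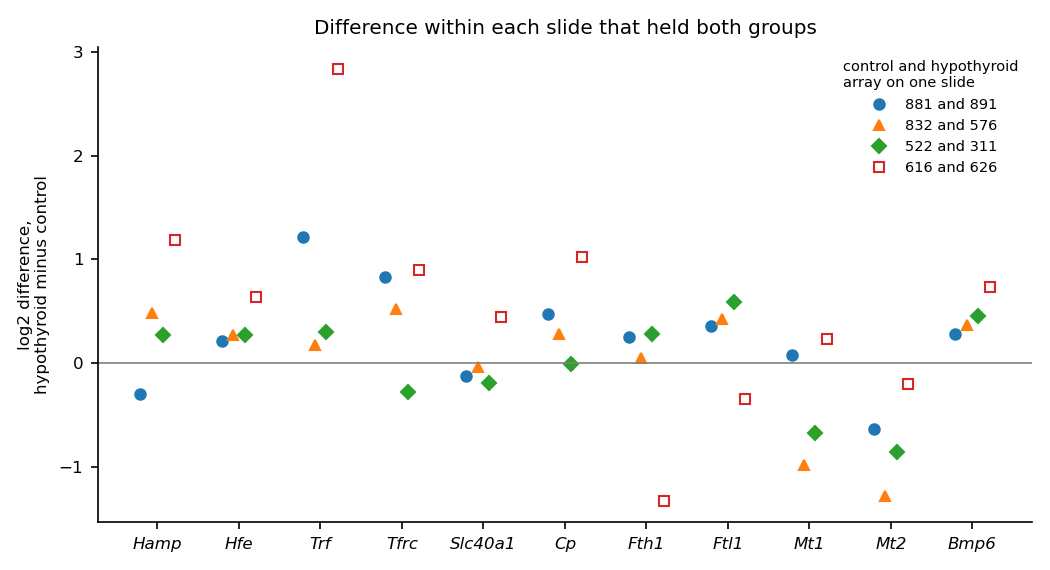
Difference between the hypothyroid and the control array on each of the 4 slides that held both groups, in log2 units, for the 10 genes and Bmp6. Trf, Hfe and Bmp6 lie above 0 and Mt2 below 0 on all 4 slides, and the slide with control 616 (open squares) gives the highest value for every gene except Fth1 and Ftl1, where it gives the lowest.

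Mt1 and Mt2 had ranges within each group that were wider than the difference between the groups. Mt1, read by 10 spots with an SD of 0.01 to 0.03 between them, had ratios of 0.63, 0.55, 1.62, 0.26 and 0.01 in controls and 0.71, -0.43, 0.94, 0.40 and 0.49 in hypothyroid liver. Mt2 had ratios of 1.16, 0.65, 2.47, 0.99 and 0.21 in controls and 0.52, -0.63, 1.61, 0.62 and 0.79 in hypothyroid liver. Both genes were highest in control 522 and next highest in hypothyroid 311, which shared a slide, and both were lowest in hypothyroid 576 and next lowest in control 391. The difference between groups was -0.19 for Mt1 (SE 0.31, 95% confidence interval -0.88 to 0.50, limma adjusted p = 0.889). It was -0.28 without control 616, 0.06 without control 522, 0.02 without hypothyroid 576, -0.34 without control 391 and -0.32 without hypothyroid 311.

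For Mt2 the difference was -0.51 (SE 0.45, 95% confidence interval -1.50 to 0.48, limma adjusted p = 0.79), with an exact permutation p = 0.365. It was -0.54 without control 616, but -0.17 without control 522, -0.21 without hypothyroid 576 and -0.77 without hypothyroid 311, so that single arrays moved it by over 1.5 times. Within slides Mt2 was lower in the hypothyroid array on 4 of 4 (-0.64, -1.28, -0.86 and -0.20), while Mt1 was lower on 2 of 4 (-0.98 and -0.68, against 0.08 and 0.23). With slide as a fixed block the Mt2 difference was -0.74 (limma adjusted p = 0.698). The interval without the block holds fold changes from 0.353 to 1.39.

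Control 522 was also the highest array in the mean of 18 acute phase genes (3.09, against 1.65 to 2.52 in the other controls and 2.45 to 2.70 in hypothyroid liver) and in that of 8 exocrine pancreas markers (4.24). The pancreas mean was 4.10 in control 832 and 2.56 in control 616, and 0.61 to 0.79 in all other arrays. Control 832 did not share the high metallothionein values. The mean of 9 glucocorticoid responsive genes was likewise highest in control 522, at 1.04. It was 0.14 to 0.61 in the other controls and 0.27 to 0.57 in hypothyroid liver. The part of these genes and markers in the metallothionein values was not tested.

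**Figure D4:**
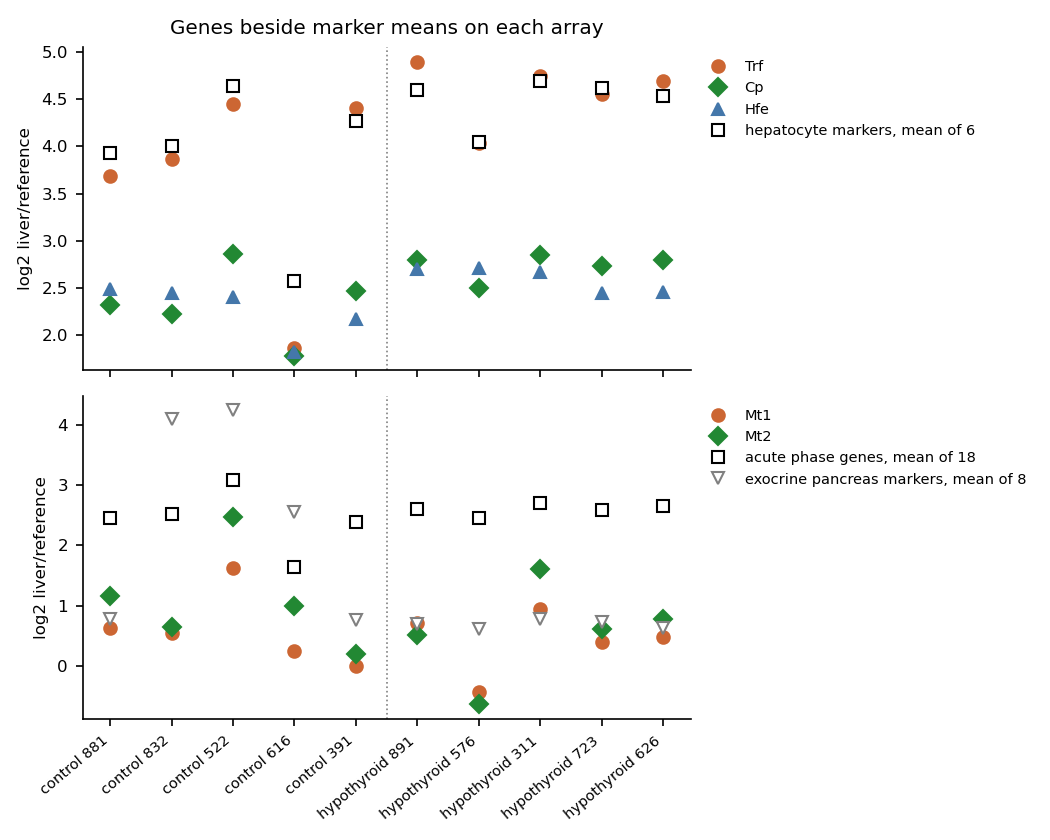
Log2 ratio of liver to reference on each array (x axis) for Trf, Cp and Hfe beside the mean of 6 hepatocyte markers (upper panel), and for Mt1 and Mt2 beside the means of 18 acute phase genes and 8 exocrine pancreas markers (lower panel). Trf and the hepatocyte mean are both lowest in control 616, and Mt1 and Mt2 are highest in control 522.

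The genes around the 10 were taken from lists of the same pathways. Of the listed genes 100 could be tested, 58 with a higher and 42 with a lower mean in hypothyroid liver, and 0 had an adjusted p below 0.05. Before adjustment 6 of the 100 were higher and 3 lower at a limma p below 0.05, against 3.34% and 4.08% of all probes tested. The median difference was 0.03, and that of all probes was -0.01. Of all probes, 46.3% had a higher mean in hypothyroid liver. For the list of hepcidin control, 9 of 22 genes were higher and 13 lower, with a median of -0.04.

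Within that list Bmp6, the ligand made by liver endothelium that carries the iron signal to hepatocytes, had the lowest p of all 100 genes. Its ratio was 0.33, 0.19, 0.20, 0.02 and 0.21 in controls and 0.61, 0.56, 0.65, 0.87 and 0.75 in hypothyroid liver, with every hypothyroid array above every control. The difference was 0.50 (SE 0.08, 95% confidence interval 0.32 to 0.67), a fold change of 1.41, with an exact permutation p = 0.00794, the smallest that 5 against 5 arrays can give. The limma p was 6.64e-05 before and 0.125 after adjustment over all probes. The difference was positive on all 4 slides, from 0.28 to 0.73. This Bmp6 probe was itself dim, with a mean log2 intensity of 6.96, against 12.41 for the brighter Alas1 probe. It was marked well above background on all arrays. A second Bmp6 probe, dimmer still at 6.24, gave 0.15 (SE 0.06, limma adjusted p = 0.651). Over 23 other ways of processing, the value lay between 0.33 and 0.85 and the limma adjusted p between 0.0659 and 1. Of 8 sinusoidal endothelium markers 3 were higher and 5 lower, with a median of -0.05, and Fcgr2b was lower by 0.45 (SE 0.09, limma adjusted p = 0.172).

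**Figure D5:**
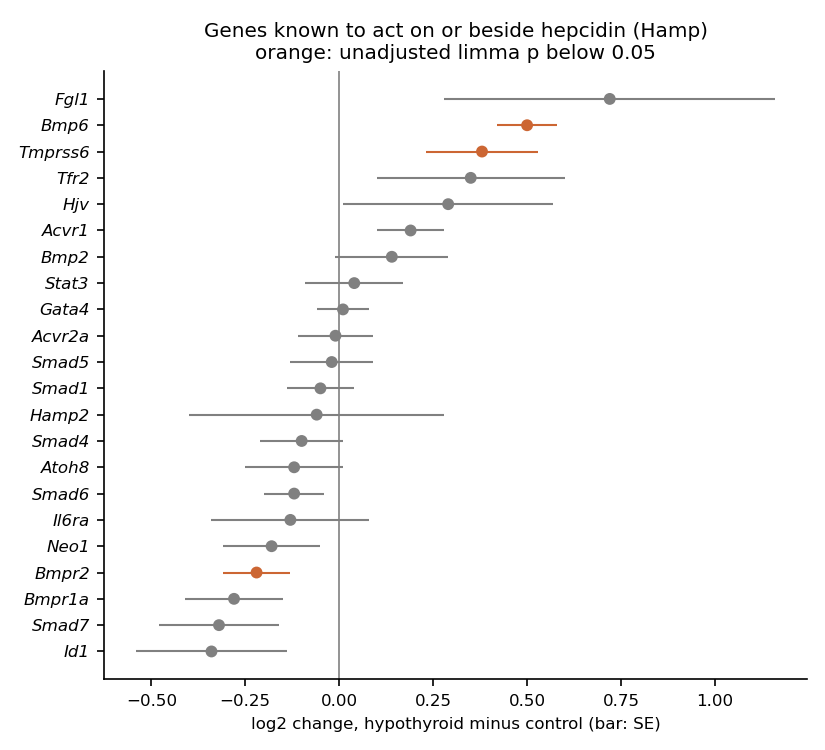
Log2 change with its SE for the 22 genes tested of the hepcidin control list, ordered by size. Bmp6 and Tmprss6 are higher and Bmpr2 is lower at an unadjusted limma p below 0.05 (orange).

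Id1, Smad7 and Atoh8, which are known to answer to BMP signals in hepatocytes, had differences of -0.34 (SE 0.20), -0.32 (SE 0.16) and -0.12 (SE 0.13), with limma adjusted p = 0.729, 0.706 and 0.826. Control 616 was the highest array for Id1, at -0.76, against -1.97 to -1.63 in the other controls. The receptor Bmpr2 was lower by 0.22 (SE 0.09, limma adjusted p = 0.651), and its difference was -0.14 without control 616. Tmprss6, the protease that cuts hemojuvelin and so lowers hepcidin, was higher by 0.38 (SE 0.15, limma adjusted p = 0.63), with all hypothyroid arrays between 4.36 and 4.49 and controls from 3.44 to 4.38. Without control 616, its lowest control, the difference was 0.23. The co-receptor gene Hjv (0.29, SE 0.28) and the sensor gene Tfr2 (0.35, SE 0.25) had limma adjusted p = 0.808 and 0.751. Control 616 was the lowest array for both, at 1.45 and 3.17. The other controls lay at 2.61 to 3.21 for Hjv and at 4.43 to 4.67 for Tfr2.

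Among 12 partners in iron uptake, reduction and export, 8 were higher and 4 lower, with a median of 0.04. The endosomal iron reductase gene Steap3 was higher by 0.14 (SE 0.06, limma adjusted p = 0.634) without overlap of the groups, but its spot was well above background on only 2 control and 4 hypothyroid arrays. The iron transporter gene Slc11a2 had a difference of -0.37 (SE 0.19, limma adjusted p = 0.712) by its brighter probe and of -0.02 by the other, and Slc39a14 one of -0.08 (SE 0.21). The brighter Slc11a2 probe was highest in control 616, at 0.49, against -0.52 to -0.23 in the other controls. Among the 7 genes of iron sensing and ferritin turnover, 3 were higher and 4 lower. The iron regulatory protein genes Aco1 and Ireb2, whose products bind the messengers of ferritin and Tfrc, had differences of 0.27 (SE 0.17) and -0.03 (SE 0.07). Aco1 was lowest in control 616, at 0.95, against 1.73 to 1.94 in the other controls.

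Of 15 genes of heme synthesis and breakdown 9 were higher and 6 lower, with a median of 0.06. Blvrb, a biliverdin reductase, was higher by 0.24 (SE 0.07, limma adjusted p = 0.418), with controls at 0.71 to 0.91 and hypothyroid liver at 0.94 to 1.18. Alas1, the first enzyme of heme synthesis in liver, had a difference of 0.42 (SE 0.24) and Hmox1, the heme oxygenase, one of -0.06 (SE 0.14). The plasma proteins that take up free hemoglobin and heme, haptoglobin (Hp) and hemopexin (Hpx), had differences of 0.71 (SE 0.42) and 0.61 (SE 0.35), with limma adjusted p = 0.727 for both. As for Trf, control 616 was the lowest array for Alas1, Hp and Hpx, at 1.86, 2.17 and 3.33.

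For zinc and copper handling, 13 of 17 genes were higher and 4 lower, with a median of 0.04. Mtf1, which induces metallothioneins, and the zinc exporter gene Slc30a1, also a target of Mtf1, had differences of 0.01 (SE 0.11) and 0.04 (SE 0.17). The copper pump gene Atp7b, which loads ceruloplasmin, had one of 0.06 (SE 0.28). Slc30a10, a manganese exporter of hepatocytes, was higher by 0.53 (SE 0.19, limma adjusted p = 0.593), and its second probe also gave 0.53 (SE 0.16). With the signals as processed by the scanner software the value of Slc30a10 was -0.13.

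Of the signals known to raise metallothioneins, 18 acute phase genes had a median difference of 0.20, with 12 higher and 6 lower. Saa3, a serum amyloid A gene of inflamed tissue, was lower by 0.78 (SE 0.31, limma adjusted p = 0.63). The groups were barely apart, with the lowest control at -1.31 and the highest hypothyroid array at -1.32. Controls 522 and 616 lay at 0.40 and 0.02, and the other controls at -1.31 to -1.04. The Saa3 difference was -0.52 without control 522 and -0.62 without control 616. The 9 glucocorticoid responsive genes had a median of -0.06, with 4 higher and 5 lower. Tat, the tyrosine aminotransferase gene, was higher by 0.61 (SE 0.21, limma adjusted p = 0.597), with control 522 left out as an outlier spot. Without control 616, at 3.41 against 4.45 to 4.53 in the other controls, the Tat difference was 0.34. Cdkn1a, a cell cycle inhibitor, was lower by 0.82 (SE 0.34, limma adjusted p = 0.649), and its difference was -0.52 without control 522.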

How the data were processed

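Hepatic mRNA of 5 control and 5 hypothyroid pups was hybridised on 2-colour arrays against a universal mouse reference RNA, on 6 slides, of which 4 carried arrays of each group. For every spot the authors deposited the scanner's median intensity and local background in both channels, from Feature Extraction 10.1.1.1, and also the software's processed signal intensity. No normalized value was used. The labels gave the group and number of each animal, which was 1 pup of a litter. The miRNA assays of the series hold no mRNA and were not analysed here.

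Outlier and control spots were left out. Background was corrected with normexp (offset 50), ratios were normalized by loess (span 0.2) within arrays, and spots of a probe were averaged. The background limit lay 3 trimmed SDs above the 5% trimmed mean of negative controls, and probes were kept if above it on at least 4 arrays of either group, which left 31987 of 41174. Genes were named by accession through the RefSeq table of GRCm38.p6, which matched 23374 probes, and the brightest probe stood for a gene. limma 3.58.1 in R 4.3.3 was fitted over all kept probes with Benjamini-Hochberg adjustment, called at 0.05. Single values were also compared by exact two-sided permutation. The permutation Fs test of the methods was not run. Liver was taken from Cy3 on control 832 and hypothyroid 576, an inference from the correlation of arrays that no label states. Scripts were tested on simulated data. Precision is limited by the number of arrays.

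The 10 genes, the lists and the tests were chosen with earlier results of these data known. From the lists, genes were named by a fixed choice of 20, and any other with an unadjusted p below 0.05. Alternatives changed the background, normalization, filter, dyes, probe choice, slide block and arrays included. The liver channel alone, and the slide block without control 616, were added after seeing the data. A probe "well above background" was so marked by the scanner software. Promoter windows and motifs were read with Python 3.11.15, and windows aligned with Biopython 1.88. The skeletal muscle markers, 7 tested, were all lower, with a median of -0.22, and the 8 exocrine pancreas markers all lower, with a median of -1.93.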

Additional observations from a re-analysis of the deposited data

Results flagged for a closer look

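Among the 20 groups of 5 values, for the 10 genes in each treatment, 1 held a value far from the rest. The Fth1 ratio of hypothyroid 576 was -2.09 and the next lowest hypothyroid array was at -1.21, a gap of 0.712 of the range of the group. Chance gives about 1 such group in 20. Control 832, on the same slide and likewise with liver taken to be in Cy3, had -2.14. The part of the dye was not tested.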

How the results depend on the processing

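No gene of the 10 and no gene of the 7 pathway lists (cell type markers were not rerun) had an adjusted p below 0.05 under any of the 23 alternatives, and the lowest adjusted p of a member was 0.277, for Mt2 with slide as a fixed block and control 616 left out. Trf, Tfrc, Hfe, Cp, Ftl1 and Hamp stayed higher under every alternative, with Trf from 0.49 to 1.13, Tfrc from 0.26 to 0.66, Hfe from 0.22 to 0.55, Cp from 0.25 to 0.59, Ftl1 from 0.10 to 0.46 and Hamp from 0.10 to 0.47. Mt2 ran from -0.92 to 0.00, the last with the dyes as labelled. The number of members with an unadjusted p below 0.05, 3 in the report, was 1 with the processed signals of the scanner software, 0 with median centring, 0 with the dyes as labelled, 1 without the slide of control 832 and hypothyroid 576, 1 with the liver channel alone, 5 with slide as a fixed block and control 616 left out, and 0 to 4 when 1 array was left out, the 0 without hypothyroid 891. With 1 array left out at a time, Slc40a1 ran from -0.01 to 0.13, Fth1 from -0.34 to 0.22, Mt1 from -0.34 to 0.06 and Mt2 from -0.77 to -0.17.

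The sign turned for 4 genes. Fth1 was 0.04 with median centring, 0.22 without control 616, 0.11 without hypothyroid 576, and 0.19 with slide as a block and control 616 left out. Mt1 was 0.20 with the dyes as labelled, 0.01 without the slide of control 832, 0.06 without control 522, 0.02 without hypothyroid 576 and 0.01 with the liver channel alone. Slc40a1 was -0.01 without control 616, -0.23 with the liver channel alone and -0.12 with the slide block and control 616 left out, and Slc30a10 was -0.13 with the processed signals. The cause was not tested. Median centring moved the median of all probes from -0.01 to 0.09. Over all probes 2 were called, 30 without control 616, 14 with slide as a random block and 0 with it as a fixed block. By the numbers of the animals no paired analysis was possible because the groups share none. Slide, which joined 4 control and 4 hypothyroid arrays, was used as a block in the alternatives only. The main fit and the exact permutation test took no account of slide. Signals near background limit what can be seen for Steap3 and, in 1 hypothyroid array, Hamp. The probes of Bmp6 and Slc30a10 were marked well above background but were dim, with a mean log2 intensity of 6.96 and 7.19.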
